A study of Mus musculus with 14 samples.

Results

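The G1 cyclins and CDK inhibitors are described here by 10 genes, taken by symbol from the 35275 genes of the deposited expression table. They comprise 3 D-type cyclins (Ccnd1, Ccnd2 and Ccnd3), 2 E-type cyclins (Ccne1 and Ccne2), the Cip/Kip inhibitors Cdkn1a (p21) and Cdkn1b (p27), and the INK4 inhibitors Cdkn2a (p16INK4a and p19ARF), Cdkn2b (p15INK4b) and Cdkn2c (p18INK4c). All 10 were found in the table. mRNA was sequenced in 14 samples from 5 lines of mouse ovarian tumor cells grown in suspension as tumorspheres for 5 days in PromoCell XF medium. KMF cells (3 samples) derive from ID8 ovarian epithelial cells of C57Bl6 mice after passage in mice. FAK KO cells (3 samples) are KMF clone KT13, a single clone in which CRISPR/Cas9 disrupted Ptk2, the gene for focal adhesion kinase (FAK). The other lines were all made from KT13 and share its knockout: FAK-WT cells (3 samples) re-express lentiviral GFP-FAK, FAK-R454 cells (2 samples here, where the methods describe 3) express GFP-FAK without kinase activity, and β-catenin ΔGSK cells (3 samples) express a β-catenin that GSK3β cannot mark for degradation. As only KT13 was sequenced as a knockout, the effect of losing FAK and what is particular to this clone cannot be told apart between KMF and FAK KO cells. The lines made from KT13 went through viral transduction (lentiviral for FAK, retroviral for β-catenin), drug selection and enrichment by flow cytometry. No KT13 line with an empty vector is described. The inserted gene and these steps cannot be told apart between those lines and FAK KO cells.

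D-type cyclins are made in response to growth signals and activate CDK4 and CDK6, which phosphorylate the retinoblastoma protein Rb and so release E2F transcription factors. E-type cyclins, whose genes are E2F targets, then activate CDK2 at the entry into S phase. INK4 proteins bind CDK4 and CDK6 and block their pairing with D-type cyclins. Cip/Kip proteins inhibit cyclin E-CDK2 and also help to assemble cyclin D-CDK4 complexes. Ccnd1 is a textbook target of β-catenin and TCF, and Cdkn1a is a textbook target of p53.

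The libraries held from 25390558 to 35289859 fragments assigned to genes. Ptk2 mRNA was 24.3 ± 0.421 FPKM (a fragment count scaled to gene length and library depth) in KMF cells, 19.0 ± 1.45 in FAK KO cells, 15.5 ± 0.401 for β-catenin ΔGSK and 43.4 ± 1.76 for FAK-WT cells (SD, n = 3 each), and 62.4 ± 4.42 in FAK-R454 cells (SD, n = 2), so the lines given GFP-FAK were the highest. Krt8, Krt18, Krt19 and the ovarian surface epithelium gene Wt1 were expressed. These keratins were the 3 of 6 epithelial markers above 1 FPKM in each line, with a summed level of all 6 of 1372 to 1594 FPKM in FAK-WT samples and 902.7 to 1106 FPKM in those of the other lines, while Krt7, Epcam and Cdh1 were under 1 FPKM, as was the surface epithelium gene Lrrn4 in all lines but FAK-R454. Krt8 and Krt18 were called higher in FAK-WT cells, by 0.84 and 0.79 against FAK KO (adjusted p = 5.17e-04 and 9.59e-04) and by 0.62 and 0.64 against FAK-R454 cells (adjusted p = 0.0208 and 0.0243). The sums of the other lines hold changes in both directions. Against FAK KO cells, Krt8 was lower (-0.81, adjusted p = 9.75e-05) and Krt19 higher (0.55, adjusted p = 7.20e-04) in β-catenin ΔGSK cells. In KMF cells Krt18 was higher (0.64, adjusted p = 2.74e-04) and Krt19 lower (-0.22, adjusted p = 0.0492). The surface epithelium genes differed among the lines: Wt1 averaged 226.8 ± 10.3 FPKM in β-catenin ΔGSK and 97.8 ± 2.71 in FAK KO cells (SD, n = 3 each), Upk3b 31.6 ± 0.649 in FAK-R454 (SD, n = 2) and 4.03 ± 0.942 in FAK KO cells (SD, n = 3), and Msln from 47.8 in β-catenin ΔGSK to 97.1 in FAK-WT cells. Of the blood markers, Cd3e was at 0 in all libraries and Ptprc reached at most 0.00759 FPKM, while Cd68 ran from 1.05 to 12.3 FPKM and was highest in FAK-WT cells. The fibroblast-like markers Pdgfra, Col1a1 and Dcn summed to 123.1 to 145.3 FPKM in FAK-WT cells, against 121.7 to 131.7 in FAK-R454, 90.0 to 126.6 in FAK KO, 41.8 to 49.8 in KMF and 30.8 to 45.1 in β-catenin ΔGSK cells. Dcn made up most of these sums. In KMF against FAK KO cells Dcn was lower (33.1 against 99.0 FPKM), but Pdgfra (9.06 against 3.03) and Col1a1 (2.46 against 1.33) were higher. Col1a1 averaged 9.12 FPKM in FAK-WT and 10.1 in FAK-R454 cells, and Pdgfra 10.3 and 8.87. In β-catenin ΔGSK cells all 3 were lower than in FAK KO cells. The part of these marker differences in the results was not tested. Replicate 3 of FAK-WT differed from replicates 1 and 2 by a chi-square of 42.5 and 30.5 per gene, against 3.15 between those replicates and 3.44 to 30.4 within the other lines. Calls and counts that change without FAK-WT replicate 3 are therefore given beside the results. Replicate 3 of KMF stood apart in the same way, by 23.8 and 29 against 4.59. The 30.4 was between replicates 1 and 3 of β-catenin ΔGSK. List counts were not recomputed without samples of these 2 lines.

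Levels of the 10 genes spanned from 0 to 291.9 FPKM. Ccnd1, Ccnd2 and Cdkn1a were the most abundant, at 61.7 to 291.9 FPKM over the 14 samples, followed by Cdkn2c at 37.6 to 91.7 (in β-catenin ΔGSK cells its mean of 84.0 was above those of Ccnd1, 68.9, and Cdkn1a, 78.1), Ccnd3 at 20.8 to 35.3 and Cdkn1b at 22.4 to 37.7 FPKM. Ccne2 was between 3.46 and 8.88 FPKM and Ccne1 between 1.96 and 2.92 FPKM. Cdkn2a and Cdkn2b were at 0 in every library. FPKM is scaled to gene length, so these levels can be set side by side between genes, with a limit. Ccnd1, Ccnd2, Ccnd3 and Ccne2 overlap genes of the other strand, whose reads may be included if counting ignored the strand. For Ccne2 the overlapping gene, Ints8, had 16.84 to 30.65 FPKM. The libraries are of whole cultures, in which more cells in a phase of the cycle and more RNA per cell cannot be told apart.

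**Figure D1:**
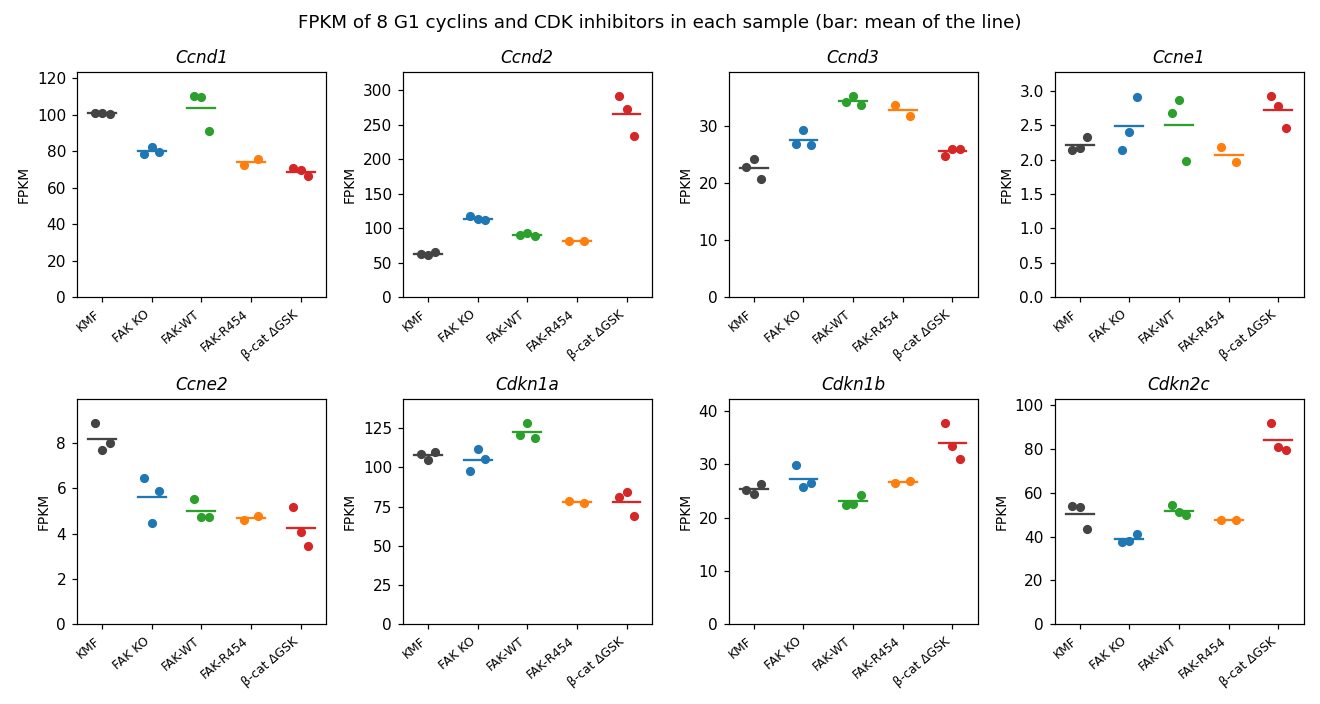
FPKM (vertical axes, from 0) of the 8 expressed genes in each of the 14 samples, by line, with a bar at the mean of each line. Ccnd2 and Cdkn2c stand highest in the β-catenin ΔGSK samples, and Cdkn1a is lowest in the FAK-R454 and β-catenin ΔGSK samples.

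Lines were compared with limma on log2(FPKM + 0.1), a scale that understates the change of low genes, over all genes with a mean above 1 FPKM in either line, and a gene was called at an adjusted p under 0.05. The 8 expressed genes passed this filter in every comparison. Between FAK-WT and FAK KO cells 4 of the 8 were called higher and 2 lower, where 15.6% of 11841 genes tested were called higher and 25.2% lower. Between FAK-R454 and FAK KO cells 2 were called higher and 2 lower, beside 9.78% and 9.89% of 11818 genes tested. In β-catenin ΔGSK against FAK KO cells 3 were higher and 2 lower, beside 23.7% and 34.4% of 11915 genes, and in KMF against FAK KO cells 3 were higher and 2 lower, beside 23.1% and 28.7% of 11893 genes. FAK-WT against FAK-R454 cells gave 2 higher and none lower, beside 3.38% and 4.44% of 11782 genes. FAK-WT against KMF cells gave 3 higher and 1 lower, beside 18.2% and 23.5% of 11847 genes. The first 4 comparisons share the same FAK KO samples. The 6 genes called for FAK-WT against FAK KO samples kept their direction and call without FAK-WT replicate 3, but 4 were called without FAK KO replicate 1 or 3 or FAK-WT replicate 1 or 2, and 2 with each chromosome centred on its own median. Calls over all genes moved as well, from 1851 higher and 2986 lower to 1386 and 2084 without FAK KO replicate 1 and 1191 and 1536 without its replicate 3. They were 1464 and 2231 without FAK-WT replicate 1, 1259 and 1854 without its replicate 2, 1981 and 2621 without its replicate 3, and 1459 and 2560 with chromosomes centred. Without FAK-WT replicate 3, 6 instead of 2 were called between FAK-WT and FAK-R454 cells, where the shares of all genes rose to 12.8% higher and 15.3% lower, and 6 instead of 4 between FAK-WT and KMF cells, beside 19.8% and 23.5%.

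Changes of 2-fold or more were found for Ccnd2 and Cdkn2c, both in β-catenin ΔGSK against FAK KO cells, where 12.1% of all genes passed that threshold. None of the 8 reached 2-fold in FAK-WT against FAK KO (4.62% of all genes), FAK-R454 against FAK KO (2.74%), KMF against FAK KO (8.01%), FAK-WT against FAK-R454 (1.44%) or FAK-WT against KMF cells (5.93%). The median log2 fold change of all genes was below 0 in each comparison, at -0.08 in FAK-WT cells and -0.09 in β-catenin ΔGSK cells against FAK KO cells. Median-of-ratios scaling moved the latter by 0.10, to 0.01, and turned 2828 genes called higher and 4100 lower into 3615 and 3202. It turned 1851 higher and 2986 lower into 2343 and 2136 in FAK-WT against FAK KO cells, 1156 and 1169 into 1251 and 1035 in FAK-R454 against FAK KO cells, 2749 and 3412 into 3199 and 2915 in KMF against FAK KO cells, and 398 and 523 into 525 and 403 in FAK-WT against FAK-R454 cells. In FAK-WT against KMF cells 2151 and 2783 became 2391 and 2613.

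**Figure D2:**
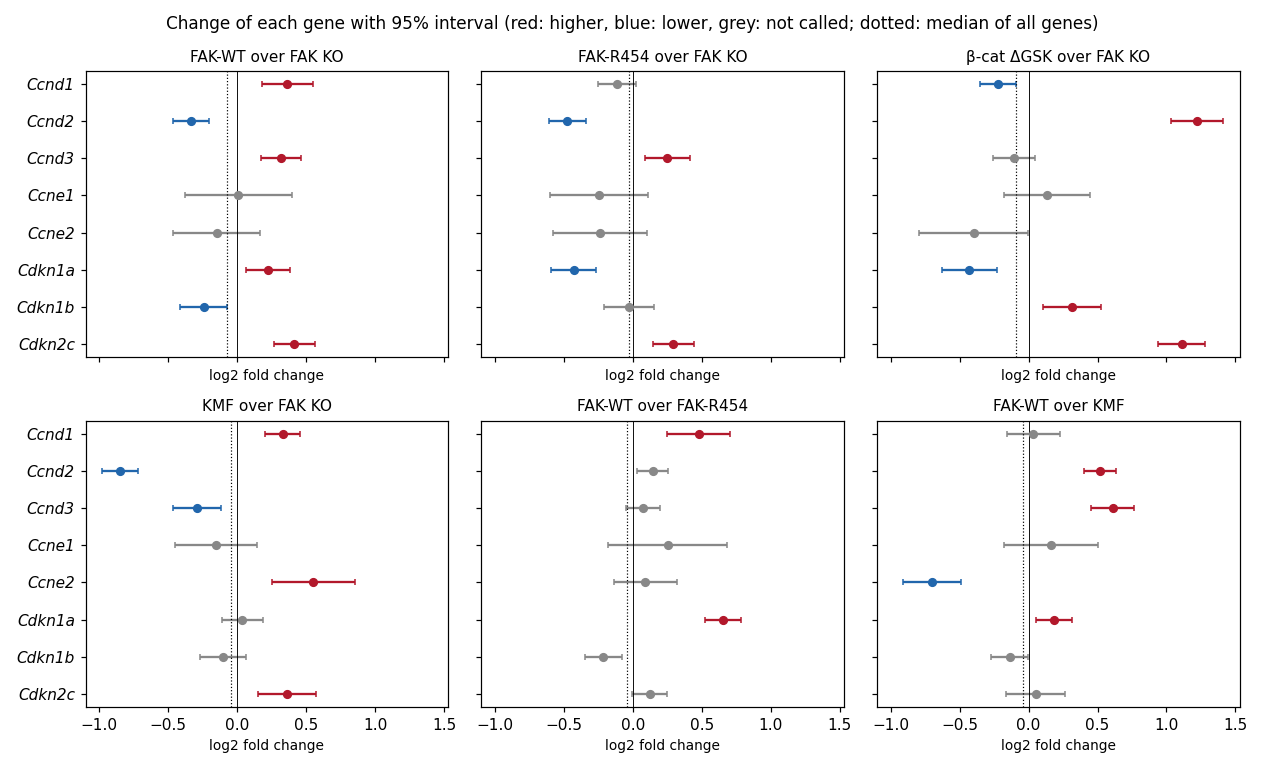
Log2 fold change (horizontal axes) of the 8 expressed genes in 6 comparisons with the 95% interval from limma, coloured by call (adjusted p under 0.05), with the median of all genes tested as a dotted line. The intervals of Ccnd2 and Cdkn2c in β-catenin ΔGSK against FAK KO cells lie farthest to the right, and that of Ccnd2 in KMF against FAK KO cells farthest to the left.

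Ccnd1 (cyclin D1; ENSMUSG00000070348, chromosome 7 of mm10, 144929931 to 144939869, minus strand) was highest in KMF and FAK-WT cells. It was 101.3, 101.2 and 100.3 FPKM in KMF, 78.7, 82.6 and 79.4 FPKM in FAK KO, and 110.4, 109.6 and 91.3 FPKM in FAK-WT samples. FAK-R454 samples had 72.3 and 76.0 FPKM, and β-catenin ΔGSK samples 70.6, 69.5 and 66.5 FPKM. No KMF or FAK-WT sample overlapped the samples of the other 3 lines, and FAK-WT replicate 3 was the lowest of its line. Set against FAK KO cells, Ccnd1 had a log2 fold change of 0.37 in FAK-WT cells (standard error, SE, 0.08, adjusted p = 0.010) and 0.33 in KMF cells (SE 0.06, adjusted p = 0.00141). Without FAK-WT replicate 3 the former was 0.45. In FAK-R454 cells it was -0.11, with a 95% interval from -0.25 to 0.03 (adjusted p = 0.213). FAK-WT and KMF cells differed by 0.03, with an interval from -0.16 to 0.22 (adjusted p = 0.760).

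Ccnd1 was lower in β-catenin ΔGSK than in FAK KO cells by -0.22 (SE 0.06, adjusted p = 0.0107), and this call was lost under median-of-ratios scaling (-0.12, adjusted p = 0.134). In the direct comparison of the lines given GFP-FAK, FAK-WT cells exceeded FAK-R454 cells in Ccnd1 by 0.48 (SE 0.09, adjusted p = 0.0372). That call was lost without FAK-WT replicate 1 (adjusted p = 0.0908) or 2 (0.126) and without FAK-R454 replicate 1 (0.260) or 2 (0.245), as well as without the filter on low values (0.0664), and held without FAK-WT replicate 3 (log2 fold change 0.57, adjusted p = 7.34e-05). Genes of chromosome 7 had a median log2 fold change 0.16 above that of the other chromosomes in FAK-WT against FAK KO cells, 0.13 above it in KMF and 0.071 above it in FAK-R454 cells. With each chromosome centred on its own median, the difference of Ccnd1 from FAK KO cells was -0.21 for FAK-R454 (adjusted p = 0.0506), 0.21 for FAK-WT (adjusted p = 0.0770) and 0.20 for KMF cells (adjusted p = 0.0197). Between FAK-WT and FAK-R454 cells it was 0.40 (adjusted p = 0.0755).

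Ccnd2 (cyclin D2; ENSMUSG00000000184, chromosome 6, 127125779 to 127151048, minus strand) varied most among the lines, 4.22-fold between the highest and the lowest line mean. It was 291.9, 272.7 and 234.4 FPKM in β-catenin ΔGSK samples and 116.9, 113.1 and 111.2 FPKM in FAK KO samples. FAK-WT samples had 90.7, 92.3 and 88.1 FPKM, FAK-R454 samples 81.5 and 82.0 FPKM, and KMF samples 63.0, 61.7 and 64.7 FPKM. The samples of the 5 lines formed 5 ranges without overlap. Relative to FAK KO cells Ccnd2 rose by 1.22 on the log2 scale in β-catenin ΔGSK cells (SE 0.08, adjusted p = 5.45e-06), a change exceeded in size by 8.88% of the genes tested. It fell in the other 3 lines, namely by -0.33 in FAK-WT (SE 0.06, adjusted p = 0.00310), -0.48 in FAK-R454 (SE 0.06, adjusted p = 0.00147) and -0.85 in KMF cells (SE 0.06, adjusted p = 8.06e-06).

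The order of Ccnd2 levels was thus β-catenin ΔGSK, FAK KO, FAK-WT, FAK-R454 and KMF. Neighbours in this order differed in the limma test except FAK-WT and FAK-R454 cells, whose difference was 0.14 with an interval from 0.03 to 0.26 (adjusted p = 0.114). That difference passed without FAK-WT replicate 3 (0.16, adjusted p = 0.0119) and with chromosomes centred (0.27, adjusted p = 0.0366). FAK-WT cells remained above KMF cells by 0.52 (SE 0.05, adjusted p = 2.84e-04). Genes of chromosome 6 had a median of -0.34 in KMF against FAK KO cells, against -0.03 on the other chromosomes, and Ccnd2 changed by -0.58 there once chromosomes were centred (adjusted p = 6.76e-05). With the same centring its change in FAK-WT against FAK KO cells was -0.21 (adjusted p = 0.0227).

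Ccnd3 (cyclin D3; ENSMUSG00000034165, chromosome 17, 47505051 to 47599691, plus strand) was highest in the lines given GFP-FAK. FAK-WT samples had 34.3, 35.3 and 33.8 FPKM and FAK-R454 samples 33.8 and 31.9 FPKM, all above the 26.9, 29.3 and 26.7 FPKM of FAK KO samples. β-catenin ΔGSK samples had 24.8, 26.0 and 26.1 FPKM and KMF samples 22.8, 24.2 and 20.8 FPKM. Ccnd3 was higher than in FAK KO cells by 0.32 in FAK-WT cells (SE 0.06, adjusted p = 0.00570) and by 0.25 in FAK-R454 cells (SE 0.07, adjusted p = 0.0439). The call in FAK-R454 cells was lost without FAK KO replicate 1 (adjusted p = 0.0502) or 3 (0.163) and without FAK-R454 replicate 1 (0.329) or 2 (0.172), without the filter on low values (0.0744) and with the replicate block (0.228). FAK-WT and FAK-R454 cells differed by 0.07, with an interval from -0.05 to 0.20.

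KMF cells had less Ccnd3 than FAK KO cells, the log2 difference being -0.29 (SE 0.08, adjusted p = 0.0125), and FAK-WT cells had 0.61 more than KMF cells (SE 0.07, adjusted p = 4.82e-04). Genes of chromosome 17 had a median 0.24 above the other chromosomes in FAK-WT against FAK KO and 0.27 above them in KMF against FAK KO cells. With chromosomes centred, Ccnd3 changed by 0.14 in FAK-WT against FAK KO cells (adjusted p = 0.117), by 0.21 in FAK-R454 against FAK KO cells (adjusted p = 0.0652) and by -0.53 in KMF against FAK KO cells (adjusted p = 9.78e-04).

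The make-up of the D-type cyclin mRNA differed between the lines. Ccnd1 held the largest share of the summed D-type cyclin FPKM in all KMF samples (54.0 to 54.2%) and all FAK-WT samples (42.8 to 46.9%). Ccnd2 held the largest share in FAK KO (50.3 to 52.6%), FAK-R454 (43.2 to 43.4%) and β-catenin ΔGSK samples (71.7 to 75.4%). The share of Ccnd3 was lowest in β-catenin ΔGSK samples, at 6.41 to 7.98%, and highest in FAK-R454 samples, at 16.8 to 18.01%. The sum itself (FPKM) reached 360.8 ± 30.8 for β-catenin ΔGSK, 228.6 ± 13.3 in FAK-WT, 221.6 ± 3.98 in FAK KO and 186.6 ± 0.766 in KMF cells (SD, n = 3 each), and 188.7 ± 1.73 in FAK-R454 cells (SD, n = 2). These shares and sums are descriptions and were not tested.

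**Figure D3:**
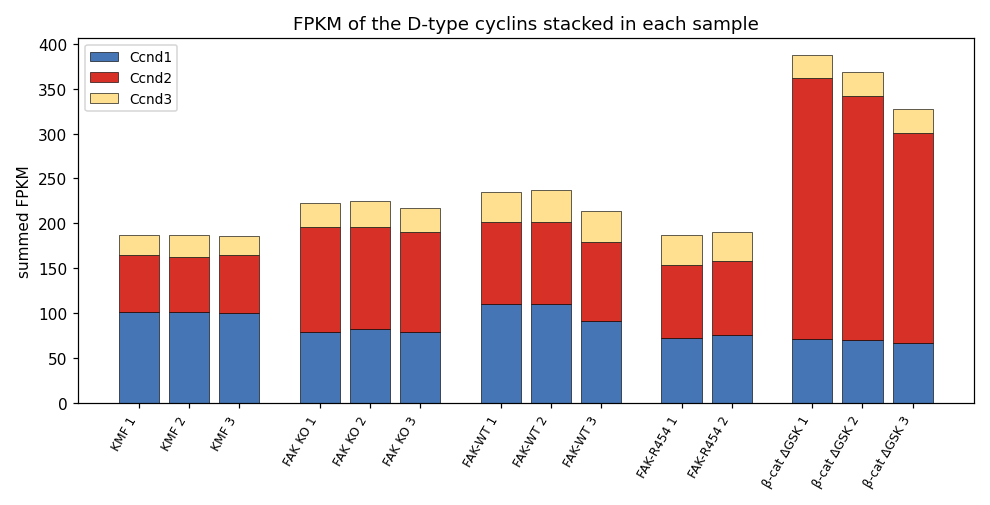
FPKM of Ccnd1, Ccnd2 and Ccnd3 stacked (vertical axis, from 0) in each of the 14 samples. The Ccnd2 segment makes up most of the taller bars of the β-catenin ΔGSK samples, and the Ccnd1 segment is the largest in KMF and FAK-WT samples.

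Ccne1 (cyclin E1; ENSMUSG00000002068, chromosome 7, 38097984 to 38107534, minus strand) was low in all lines, and none of the 6 comparisons gave a change that passed the test. Between the highest and the lowest line, β-catenin ΔGSK and FAK-R454, it differed by 0.38 (SE 0.13, adjusted p = 0.0436). These lines were picked as the extremes of the same values, which the p-value does not allow for, so it carries no weight. Ccne1 was 2.13, 2.17 and 2.32 FPKM in KMF, 2.14, 2.40 and 2.91 FPKM in FAK KO and 2.68, 2.87 and 1.97 FPKM in FAK-WT samples. FAK-R454 samples had 2.18 and 1.96 FPKM and β-catenin ΔGSK samples 2.92, 2.78 and 2.46 FPKM. The ranges of neighbouring lines overlapped throughout. These values rest on 121 to 166 fragments per library. The difference of FAK-WT from FAK KO cells was 0.01, with an interval from -0.38 to 0.40. Without FAK-WT replicate 3, Ccne1 passed the test as higher in FAK-WT cells against FAK-R454 cells (0.41, adjusted p = 0.0329) and against KMF cells (0.32, adjusted p = 0.0367).

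Ccne2 (cyclin E2; ENSMUSG00000028212, chromosome 4, 11191351 to 11204779, plus strand) was highest in KMF cells. KMF samples had 8.88, 7.69 and 8.01 FPKM, above every sample of the other lines. FAK KO samples had 6.47, 4.48 and 5.88 FPKM, FAK-WT samples 5.53, 4.73 and 4.76 FPKM, FAK-R454 samples 4.59 and 4.78 FPKM, and β-catenin ΔGSK samples 5.19, 4.07 and 3.46 FPKM. These last 4 lines overlapped their neighbours in the order of levels, and none of those neighbours differed in the test. KMF cells exceeded FAK KO cells by 0.55 (SE 0.13, adjusted p = 0.00824), and FAK-WT cells were below KMF cells by a log2 difference of -0.70 (SE 0.09, adjusted p = 9.80e-04). The log2 fold change of β-catenin ΔGSK against FAK KO cells was -0.40, with an interval from -0.80 to -0.0017 (adjusted p = 0.0782), which passed the test without FAK KO replicate 2 (-0.55, adjusted p = 0.0218) or without β-catenin ΔGSK replicate 1 (-0.55, adjusted p = 0.0167), with the replicate block (adjusted p = 0.0154) and in 1 fit of all 5 lines (adjusted p = 0.0291). Leaving out FAK KO replicate 2 also moved FAK-R454 against FAK KO cells from -0.24 (adjusted p = 0.272) to -0.39, which passed the test (adjusted p = 0.0121). FAK-WT against FAK KO cells moved from -0.15 to -0.30 (adjusted p = 0.0518). Ccne2 made up 77.5 to 80.6% of the summed E-type cyclin FPKM in KMF and 58.4 to 64.0% in β-catenin ΔGSK samples.

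Cdkn1a (p21; ENSMUSG00000023067, chromosome 17, 29090979 to 29100722, plus strand) is annotated with more than a single start, and the bases before both starts in RefSeq (GRCm38.p6) are shown because p53 acts through sites there. The first lies before the start at 29090979 and was read from chr17:29090729-29090975, the second before the start at 29093769 and was read from chr17:29093519-29093768, both 5′ to 3′ on the plus strand. Capitals mark matches to the p53 half-site, searched on both strands in the 250 bases before each start. Of 32851 windows of that length before mouse genes, 7.13% hold such a match. Among the 11 windows of the 7 members that the RefSeq table covers (Ccnd3, Ccne1, Cdkn1a, Cdkn1b, Cdkn2a, Cdkn2b and Cdkn2c), the first Cdkn1a window was the only one with a match, and it held 2.
Cdkn1a, first start: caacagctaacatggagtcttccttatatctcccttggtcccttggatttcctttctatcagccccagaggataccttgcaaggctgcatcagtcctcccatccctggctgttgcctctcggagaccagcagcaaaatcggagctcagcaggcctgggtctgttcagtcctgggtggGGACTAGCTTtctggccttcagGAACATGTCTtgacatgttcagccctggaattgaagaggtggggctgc
Cdkn1a, second start: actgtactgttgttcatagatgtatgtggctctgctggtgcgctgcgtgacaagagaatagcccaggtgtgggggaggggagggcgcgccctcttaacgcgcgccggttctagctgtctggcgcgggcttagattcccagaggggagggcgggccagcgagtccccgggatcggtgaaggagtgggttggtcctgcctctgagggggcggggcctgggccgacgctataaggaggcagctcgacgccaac

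Cdkn1a mRNA was lowest in FAK-R454 and β-catenin ΔGSK cells. It was 78.5 and 77.2 FPKM in FAK-R454 samples and 81.4, 84.0 and 69.0 FPKM in β-catenin ΔGSK samples. KMF samples had 108.5, 105.0 and 109.6 FPKM, FAK KO samples 97.9, 111.7 and 105.3 FPKM, and FAK-WT samples 120.8, 128.1 and 118.4 FPKM. The first 2 lines overlapped each other and none of the other 3, and the FAK-WT samples were above all others. Relative to FAK KO cells, Cdkn1a fell by 0.43 on the log2 scale in FAK-R454 cells (SE 0.07, adjusted p = 0.00552) and by 0.43 in β-catenin ΔGSK cells (SE 0.09, adjusted p = 0.00314). The fall in FAK-R454 cells was -0.44 without FAK-R454 replicate 1 and -0.42 without replicate 2, with adjusted p-values of 0.0669 and 0.0691. KMF and FAK KO cells differed by 0.04, with an interval from -0.11 to 0.19 (adjusted p = 0.647), and by -0.20 with chromosomes centred (adjusted p = 0.0286).

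Of the lines that carry GFP-FAK, FAK-WT cells exceeded FAK-R454 cells in Cdkn1a by 0.65 (SE 0.05, adjusted p = 0.00357), exceeded in size by 4.29% of the genes tested. It was 0.50 with chromosomes centred (adjusted p = 0.0128) and 0.68 without FAK-WT replicate 3 (adjusted p = 4.12e-05), and the call was lost with a single FAK-R454 sample (adjusted p = 0.0967 without replicate 1 and 0.0992 without replicate 2). FAK-WT exceeded FAK KO cells by 0.22 (SE 0.07, adjusted p = 0.0328) and KMF cells by 0.18 (SE 0.06, adjusted p = 0.0318). The former was lost without FAK KO replicate 1 or 3 or FAK-WT replicate 1 or 2 (adjusted p between 0.0745 and 0.135) and without the filter on low values (0.0567), and was 0.04 with chromosomes centred (adjusted p = 0.676), beside the shift of chromosome 17 genes given above. The latter was lost without KMF replicate 1 (adjusted p = 0.0929) or 2 (0.111) or FAK-WT replicate 1 (0.0780) or 2 (0.139), with the replicate block (0.0771) and in 1 fit of all 5 lines (0.0554).

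Cdkn1b (p27; ENSMUSG00000003031, chromosome 6, 134920401 to 134925513, plus strand) was highest in β-catenin ΔGSK cells, at 37.7, 33.5 and 30.9 FPKM. FAK KO samples had 29.8, 25.8 and 26.4 FPKM, FAK-R454 samples 26.6 and 26.9 FPKM, KMF samples 25.2, 24.5 and 26.4 FPKM, and FAK-WT samples 22.4, 22.5 and 24.2 FPKM. The β-catenin ΔGSK samples were above all others and the FAK-WT samples below all others. Cdkn1b was higher in β-catenin ΔGSK than in FAK KO cells by 0.31 (SE 0.09, adjusted p = 0.0166), a call lost without FAK KO replicate 3 (0.29, adjusted p = 0.0624). FAK-WT cells had less Cdkn1b than FAK KO cells, by -0.24 (SE 0.07, adjusted p = 0.0314). That call was lost without FAK KO replicate 1 or 3 or FAK-WT replicate 1 or 2 (adjusted p between 0.0712 and 0.105), under median-of-ratios scaling (-0.18, adjusted p = 0.0931) and with chromosomes centred (-0.12, adjusted p = 0.242). FAK-WT and FAK-R454 cells differed by -0.21 (interval -0.35 to -0.08, adjusted p = 0.0714), or by -0.25 without FAK-WT replicate 3 (adjusted p = 0.00397) and -0.092 with chromosomes centred (adjusted p = 0.410). FAK-WT and KMF cells differed by -0.14 (interval -0.27 to -0.0041, adjusted p = 0.0906), or by -0.17 without FAK-WT replicate 3 (adjusted p = 0.0401) and -0.29 with chromosomes centred (adjusted p = 0.00800).

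Cdkn2c (p18INK4c; ENSMUSG00000028551, chromosome 4, 109660876 to 109667189, minus strand) was the INK4 gene that all lines expressed, together with Cdkn2d (p19INK4d), which is no member. Cdkn2c was 91.7, 80.7 and 79.7 FPKM in β-catenin ΔGSK samples, above every other sample. FAK-WT samples had 54.4, 51.0 and 50.04 FPKM, KMF samples 53.8, 53.5 and 43.3 FPKM, FAK-R454 samples 47.5 and 47.7 FPKM, and FAK KO samples 37.6, 38.0 and 41.0 FPKM. FAK KO samples were below all others. The 3 lines in between overlapped in their order except that FAK-R454 and FAK-WT samples did not. Relative to FAK KO cells, Cdkn2c rose in all 4 other lines, by 1.11 on the log2 scale in β-catenin ΔGSK (SE 0.07, adjusted p = 4.89e-06), 0.41 in FAK-WT (SE 0.06, adjusted p = 0.00203), 0.36 in KMF (SE 0.09, adjusted p = 0.0106) and 0.29 in FAK-R454 cells (SE 0.07, adjusted p = 0.0184). The last was lost without FAK-R454 replicate 1 (adjusted p = 0.166) or 2 (0.160). The others held when any sample was left out and with chromosomes centred, where they were 1.17, 0.45 and 0.43. FAK-WT and FAK-R454 cells differed by 0.12 (interval -0.01 to 0.25, adjusted p = 0.210), or by 0.15 without FAK-WT replicate 3 (adjusted p = 0.0393).

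Of the pair of genes that changed 2-fold or more, RefSeq windows cover Cdkn2c only, and the bases before its second start are shown for that reason. They lie before the start at 109665372 and were read from chr4:109665373-109665609 on the minus strand, without the bases that belong to an annotated exon. The bases before its first start, at 109666756, fall within an exon in GENCODE vM21 and are not printed. No match to the TCF/LEF letters CTTTGAA or CTTTGAT was found in either window on either strand, and 4.46% and 3.21% of all windows hold them. The E-box CACGTG (6.02% of all windows) was not found either. The E2F motif was searched as TTCCCGC, as TTCGCGC, also as TTGCCGC and lastly as TTGGCGC, which 7.89% of all windows hold in any of these forms. Its first form was found from base 25 to base 19 before the first start.
Cdkn2c, second start: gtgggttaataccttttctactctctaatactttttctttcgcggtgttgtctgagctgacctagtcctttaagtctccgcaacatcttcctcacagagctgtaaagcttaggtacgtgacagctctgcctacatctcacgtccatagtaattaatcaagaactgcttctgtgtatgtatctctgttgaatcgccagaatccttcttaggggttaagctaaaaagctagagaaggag

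The genes whose values were most like those of Ccnd2 over the 14 samples were Igfbp2, Hdc and Tppp, with a Pearson r of 0.99, 0.98 and 0.98 on the log2(FPKM + 0.1) scale among 12255 genes compared. Igfbp2, an IGF-binding protein, had a mean of 173.2 FPKM in β-catenin ΔGSK cells, 11.6 in FAK KO, 3.30 in FAK-R454, 4.01 in FAK-WT and 0.784 in KMF cells. For Cdkn2c they included Cers6 (r = 0.98) and Ccdc85c (r = 0.97). Ccdc85c had a mean of 29.1 FPKM in β-catenin ΔGSK cells, 11.6 in FAK-WT, 8.14 in KMF, 7.06 in FAK-R454 and 4.1996 in FAK KO cells. Samples of a line share their origin, so these values describe the order of 5 lines more than 14 independent points.

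Cdkn2a (ENSMUSG00000044303, chromosome 4, 89274471 to 89294653, minus strand) and Cdkn2b (ENSMUSG00000073802, chromosome 4, 89306289 to 89311032, minus strand) had 0 fragments in all 14 libraries. At 3 fragments, the limit that a count of 0 allows, a library would show 0.0950 to 0.132 FPKM of Cdkn2a and 0.0610 to 0.0848 FPKM of Cdkn2b. Over all libraries together the limits are 0.00823 and 0.00529 FPKM, and they cover counting error only. Genes used by all cells, such as Tbp with line means of 1.33 to 1.96 FPKM, were detected in all lines. At 0 in every library were 33.5% of all genes measured and 19.8% of the 22026 protein-coding ones. The row of Cdkn2a covers p16INK4a and p19ARF alike, as the gene has separate starts for its 2 products, and the bases before each are shown because 1 value stands for both. The start at 89294619, upstream on the minus strand, is that of p19ARF, and the bases were read from chr4:89294654-89294869. The start at 89282192 is that of p16INK4a, and the bases were read from chr4:89282193-89282442. Capitals mark a match to the E2F letters given above.
Cdkn2a, p19ARF start: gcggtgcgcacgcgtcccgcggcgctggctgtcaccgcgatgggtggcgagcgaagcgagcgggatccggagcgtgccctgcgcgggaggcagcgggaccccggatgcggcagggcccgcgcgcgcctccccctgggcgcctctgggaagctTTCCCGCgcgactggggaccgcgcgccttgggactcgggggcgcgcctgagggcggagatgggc
Cdkn2a, p16INK4a start: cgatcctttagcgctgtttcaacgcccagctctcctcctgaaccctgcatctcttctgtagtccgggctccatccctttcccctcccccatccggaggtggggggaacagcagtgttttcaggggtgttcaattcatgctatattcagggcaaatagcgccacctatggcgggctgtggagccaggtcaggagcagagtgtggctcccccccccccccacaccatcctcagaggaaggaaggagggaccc

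The genes next to Cdkn2a and Cdkn2b were read the same way. Gm12606, whose start is at -21.25 kb relative to that of Cdkn2a, and Gm12609, at 87.3 kb on the side of Cdkn2b, also had 0 fragments in all libraries. Mtap, a purine salvage enzyme with its start at -157.5 kb, had 69.8 to 145.8 FPKM. Between Gm12606 and Mtap, Gm12605 at -77.79 kb had 1 and Gm12607 at -132.5 kb had 12 fragments over all libraries. On the side of Cdkn2b, Gm12610 at 127.2 kb had 17, Gm12608 at 150 kb had 37 and Dmrta1 at 384.8 kb had 20. Beyond Mtap, Gm12602 at -166.4 kb had 1168 and Gm12603 at -244.3 kb had 1397 fragments, with fragments in all 14 libraries. Of 35 genes that reach within 500 kb of either end of Cdkn2a, itself and Cdkn2b included, 20 were at 0 throughout. This is beside 33.5% of all genes measured. Apart from Cdkn2a, Cdkn2b, Gm12606 and Gm12609, these genes at 0 all start between -520.8 and -426.3 kb. Among them are Ifna1, Ifna4, Ifna5, Ifna7 and Ifna11. The count therefore does not describe a silent stretch around Cdkn2a. Mtap was lower than in FAK KO cells in β-catenin ΔGSK cells (log2 fold change -0.84, SE 0.09, adjusted p = 8.18e-05) and in KMF cells (-0.50, SE 0.08, adjusted p = 0.00108). It was higher in FAK-WT than in KMF cells (0.30, adjusted p = 0.0287), or by 0.38 without FAK-WT replicate 3 (adjusted p = 0.00550). Whether the DNA of Cdkn2a and Cdkn2b is present in these lines cannot be read from RNA and was not tested.

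**Figure D4:**
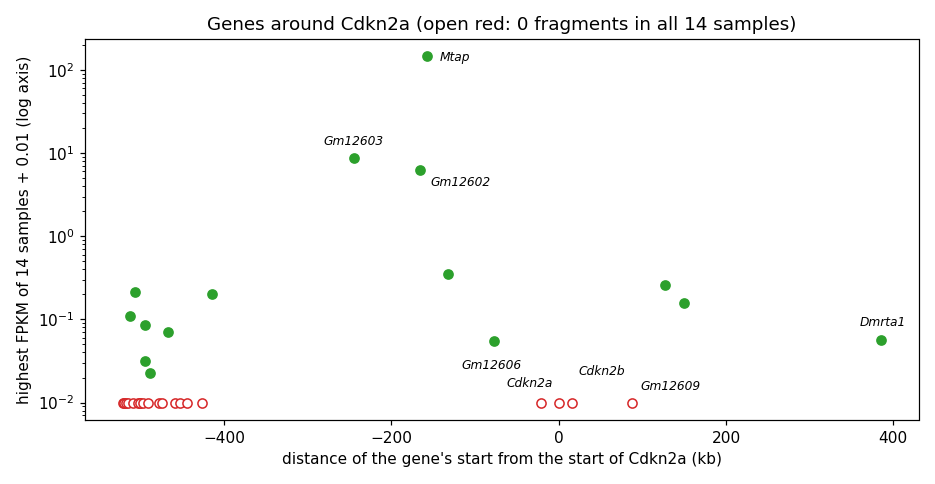
Highest FPKM of 14 samples plus 0.01 (log axis) of each gene that reaches within 500 kb of either end of Cdkn2a, by the distance of its start from the start of Cdkn2a in kb, with open red circles for genes without a fragment in any sample. Cdkn2a, Cdkn2b, Gm12606 and Gm12609 lie at the floor, and Mtap is the highest gene, with 145.8 FPKM in its highest sample.

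The partners of the members were taken from lists of the pathway. Of Cdk2, Cdk4, Cdk6, Cdkn1c and Cdkn2d, 3 of 4 tested were higher in KMF than in FAK KO cells and none lower, beside 23.1% higher and 28.7% lower of all genes. Cdk2, the partner of E-type cyclins, was 16.5 ± 0.623 FPKM in KMF and 10.8 ± 0.345 in FAK KO cells (SD, n = 3 each), which is a log2 difference of 0.61 (SE 0.06, adjusted p = 1.11e-04). Of the same 4 genes, 2 rose in FAK-WT against FAK KO cells, namely Cdkn2d by 0.33 (adjusted p = 0.0173) and Cdk6 by 0.26 (adjusted p = 0.0141), beside 15.6% of all genes, while none passed in FAK-R454 against FAK KO cells. Cdk4 stood between line means of 85.4 and 97.4 FPKM. FAK-WT cells also exceeded FAK-R454 cells in Cdk6, by 0.35 (adjusted p = 0.0236), the only 1 of 4 tested to pass there (beside 3.38% of all genes higher), and Cdk2 was lower in FAK-WT than in KMF cells (-0.48, adjusted p = 0.00150), again as the only 1 of 4 (beside 23.5% of all genes lower). Both held without FAK-WT replicate 3. In β-catenin ΔGSK against FAK KO cells 2 of 5 were higher, beside 23.7% of all genes. Of these 2, Cdkn1c passed the filter only through the β-catenin ΔGSK cells, so it could only be called higher. Cdkn1c (p57), the third Cip/Kip gene, averaged 1.23 ± 0.130 FPKM (SD, n = 3) in β-catenin ΔGSK cells, with 197 fragments against 2 in FAK KO cells, a ratio of 99.7 with a 95% counting interval from 27.2 to 829.

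Of 13 genes of the Rb and E2F family tested, 8 were higher and 1 lower in β-catenin ΔGSK than in FAK KO cells, beside 23.7% and 34.4% of all genes, with a median log2 fold change of 0.30 against -0.09 for all genes. In KMF against FAK KO cells 7 were higher and 3 lower, beside 23.1% and 28.7% of all genes, with a median of 0.31 against -0.05. E2f7, an E2F that represses cell cycle genes, averaged 0.759 ± 0.122 FPKM in FAK KO (SD, n = 3) and 2.36 ± 0.0521 (SD, n = 3) in β-catenin ΔGSK cells. This is a log2 difference of 1.53 (SE 0.15), and that of KMF from FAK KO cells was 1.01 (SE 0.16). With a FAK KO mean under 1 FPKM, E2f7 passed the filter only through the other line. Against FAK KO cells it could therefore only be called higher, and its place in these counts carries no weight. In FAK-R454 against FAK KO cells E2f7 was the only 1 of the 13 called (0.75, SE 0.21), beside 9.78% of all genes higher. It entered that test in the same way. In FAK-WT against FAK KO cells 1 was higher and 2 lower, below the shares of all genes (15.6% and 25.2%), the latter being Tfdp2, a dimerisation partner of E2F (-0.47, adjusted p = 0.00243), and E2f6 (-0.37, adjusted p = 0.00268). Without FAK-WT replicate 3 the 1 higher became 3, beside 16.7% of all genes. Tfdp2 was also the 1 gene called between FAK-WT and FAK-R454 cells (-0.32, adjusted p = 0.0432), beside 4.44% of all genes lower. Without that replicate 1 was higher and 2 lower there, beside 12.8% and 15.3% of all genes. In FAK-WT against KMF cells 1 was higher and 6 lower (5 without FAK-WT replicate 3, beside 23.5% of all genes), beside 18.2% and 23.5% of all genes, led by the Rb relative Rbl1 and by Tfdp2 (-0.64 each, adjusted p = 0.00374 and 4.23e-04).

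Among 10 genes that activate G1 cyclin-CDK complexes or turn their parts over, 3 were higher and 3 lower in β-catenin ΔGSK than in FAK KO cells, close to the 23.7% and 34.4% of all genes. Cks1b, with Skp2 part of the ubiquitin ligase that degrades p27, was higher there by 0.57 (SE 0.09, adjusted p = 5.30e-04), and Fbxo4, an F-box protein linked to the turnover of cyclin D1, was lower by -0.61 (SE 0.07, adjusted p = 9.22e-05). In KMF against FAK KO cells 4 were higher and 1 lower, beside 23.1% and 28.7% of all genes, with Cks1b at 0.63 (adjusted p = 3.49e-04) and Skp2 at 0.51 (adjusted p = 0.0102). In FAK-WT against FAK KO cells 2 were lower and none higher (2 and 2 without FAK-WT replicate 3, beside 22.1% and 16.7% of all genes), beside 25.2% and 15.6% of all genes, namely Ccnh (-0.41, adjusted p = 0.00496) and Cdk7 (-0.38, adjusted p = 0.00403), both parts of the CDK-activating kinase. None of the 10 passed in FAK-R454 against FAK KO or in FAK-WT against FAK-R454 cells, and 1 passed in the latter without FAK-WT replicate 3, as higher, beside 12.8% of all genes. In FAK-WT against KMF cells 1 was higher, Fbxo4 (0.50, adjusted p = 0.00112), and 5 were lower, among them Fbxw7, which marks cyclin E for degradation (-0.47, adjusted p = 0.0198), beside 18.2% and 23.5% of all genes.

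Of Trp53 and 16 p53 targets other than Cdkn1a, 8 were lower and 0 higher in FAK-WT cells when set against FAK KO cells, beside 25.2% lower and 15.6% higher of all genes. In FAK-R454 cells 9 were lower and 2 higher, beside 9.89% and 9.78%, in β-catenin ΔGSK cells 8 lower and 4 higher, beside 34.4% and 23.7%, and in KMF cells 10 lower and 0 higher, beside 28.7% and 23.1%. Over all genes on the deposited scale, too, more were called lower than higher in each of these comparisons, by 1169 against 1156 genes in FAK-R454 cells, and under median-of-ratios scaling more were called higher in each. Medians were -0.24, -0.32, -0.17 and -0.27, against -0.08, -0.03, -0.09 and -0.05 for all genes. Plk2 was 121.7 ± 1.55 FPKM in FAK KO and 64.6 ± 11.3 in FAK-WT cells (SD, n = 3 each), which is a log2 difference of -0.93 (SE 0.12, adjusted p = 8.41e-04). Ccng1 was lower by -0.67 in FAK-WT cells (adjusted p = 0.00130) and by -0.61 in FAK-R454 cells (adjusted p = 0.00381). Gdf15 was lower by -1.25 in KMF cells (SE 0.14, adjusted p = 1.46e-04) and by -0.69 in FAK-R454 cells (adjusted p = 0.00295), and Sesn1 by -1.01 in β-catenin ΔGSK cells (SE 0.09, adjusted p = 2.28e-05). Cdkn1a itself, as given above, was lower in FAK-R454 and β-catenin ΔGSK cells and higher in FAK-WT cells. Between FAK-WT and FAK-R454 cells 1 of the 17 was higher, Gdf15 (0.44, adjusted p = 0.0346), and 1 lower, Sesn1 (-0.50, adjusted p = 0.0134), beside 3.38% and 4.44% of all genes. Without FAK-WT replicate 3 these counts were 4 and 3, beside 12.8% and 15.3%, and those against FAK KO cells 1 higher and 7 lower, beside 16.7% and 22.1%. In FAK-WT against KMF cells 5 were higher and 0 lower (7 and 0 without FAK-WT replicate 3, beside 19.8% and 23.5% of all genes), beside 18.2% and 23.5% of all genes, led by Gdf15 (1.00, adjusted p = 0.00130) and the death receptor gene Fas (0.56, adjusted p = 0.0244).

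All 9 genes of S and M phase were higher in KMF than in FAK KO cells, with a median log2 fold change of 0.75, and 8 were higher in β-catenin ΔGSK cells, with a median of 0.83, where 23.1% and 23.7% of all genes were higher. In FAK-R454 cells 6 were higher (median 0.26) and in FAK-WT cells 3 (median 0.40), beside 9.78% and 15.6% of all genes, and none was lower in any of these comparisons. Without FAK-WT replicate 3, 8 of the 9 were higher in FAK-WT cells, with a median of 0.59, beside 16.7% of all genes. Ccna2, the S phase cyclin, was 24.9 ± 0.826 FPKM in KMF and 10.8 ± 0.552 in FAK KO cells (SD, n = 3 each), which is a log2 difference of 1.19 (SE 0.07, adjusted p = 3.16e-06). Mcm5, a subunit of the replicative helicase, was higher in KMF cells by 1.16 (adjusted p = 1.20e-05), in FAK-WT cells by 0.66 (adjusted p = 0.00438) and in FAK-R454 cells by 0.38 (adjusted p = 0.0226). Cdk1, the mitotic kinase, was higher in FAK-WT cells by 0.44 (adjusted p = 0.0312). Ccnb2, a mitotic cyclin, was higher by 1.35 in β-catenin ΔGSK (SE 0.07, adjusted p = 9.12e-07) and by 0.30 in FAK-R454 cells (adjusted p = 0.0147). None of the 9 passed between FAK-WT and FAK-R454 cells, but without FAK-WT replicate 3 all 9 passed, higher in FAK-WT cells, with a median of 0.34, beside 12.8% of all genes. In FAK-WT against KMF cells 4 were lower and none higher, beside 23.5% and 18.2% of all genes, with Ccna2 at -0.77 (adjusted p = 0.00426) and Ccnb2 at -0.51 (adjusted p = 0.0479), or -0.29 without FAK-WT replicate 3 (adjusted p = 0.0199).

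**Figure D5:**
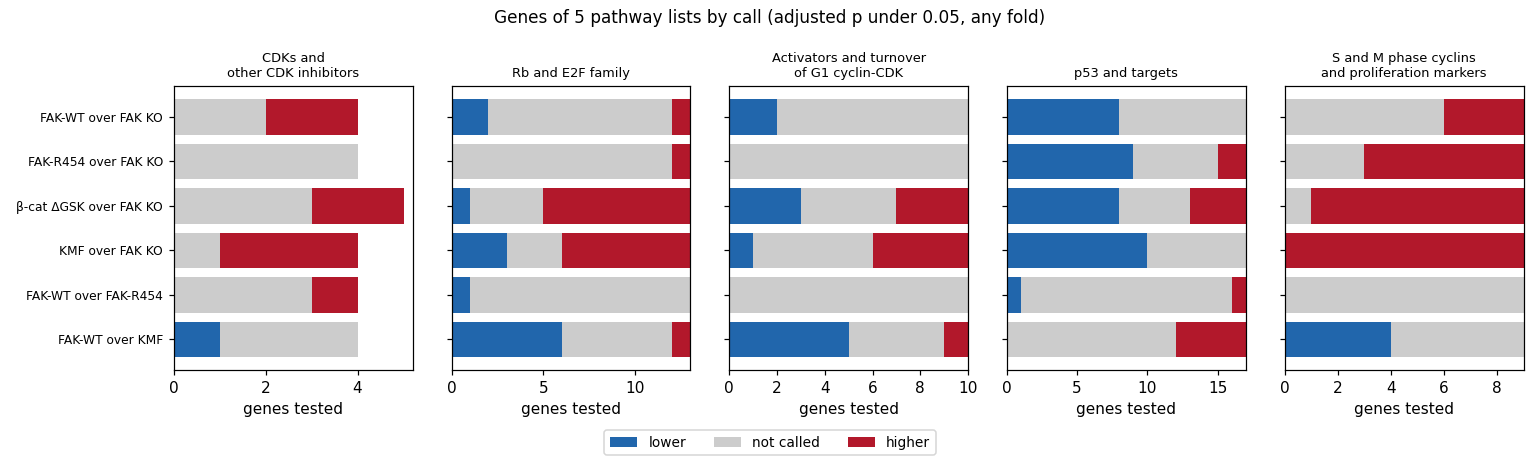
Numbers of genes tested (horizontal axes) that were called lower, not called or called higher at an adjusted p under 0.05 and any fold, for 5 pathway lists in 6 comparisons. The p53 panel is mostly blue where it is called in the 4 comparisons with FAK KO cells, and all 9 genes of the S and M phase panel are red in KMF against FAK KO cells.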

How the data were processed

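mRNA of 14 tumorsphere samples was measured by paired-end sequencing of poly(A)-selected libraries. The authors mapped the reads (TopHat2 in the methods, STAR 2.5 and mm10 in the submitters' processing notes, without stated roles) and deposited FPKM per gene. The counting tool and annotation are not given in the sources used here. Of 34490 gene IDs shared with GENCODE vM21 (GRCm38), 99.8% overlapped its coordinates. The deposited FPKM values were used unchanged. FPKM times gene length came out as whole multiples of 1 fragment in each library for 100% of values (tolerance 0.01), which gave 25390558 to 35289859 fragments per library. Whether counting used the strand is not stated, and Ccnd1, Ccnd2, Ccnd3 and Ccne2 overlap genes of the other strand (Oraov1, 9330179D12Rik, Bysl and Ints8, at 0.400 to 30.6 FPKM), whose reads cannot be told apart.

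Comparisons used limma 3.58.1 in R 4.3.3 (lmFit and eBayes with a trend) on log2(FPKM + 0.1), on the samples of 2 lines, for genes with a mean FPKM above 1 in either line, with Benjamini-Hochberg adjusted p under 0.05, and separately a change of at least 1 on the log2 scale. Intervals are 95%. The methods describe independent RNA samples at various cell passages for KMF cells, and replicate RNA samples for KT13 and the lines made from it. For the other lines separate cultures are not stated, so p-values measure the spread between these samples, which may be technical. Members and lists were chosen with earlier results of these data known. Named were all members, from each list the 3 largest changes of 2-fold or more per comparison or else the 2 largest called, and the 3 genes most like a member whose line means differ 2-fold. An item that this rule names is not reported here. Levels of the blood, endothelial, fibroblast-like, epithelial and mesothelial markers were also read. Alternatives were a pseudocount of 1, no filter, a filter at 5 FPKM, median-of-ratios scaling, a replicate block, 1 fit of 5 lines, limma-voom on the recovered fragments, chromosomes centred on their median, and each sample left out. List counts without FAK-WT replicate 3 were added after seeing the data. With 1 FAK-R454 sample left, it was assumed to vary like the other line. The method was tested on simulated data, and no result of that test is given here. Sequences and figures were handled with matplotlib 3.10.9, scipy 1.17.1 and pandas 2.3.3 under Python 3.11.15.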

Additional observations from a re-analysis of the deposited data

How the results depend on the processing

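Over 6 comparisons and 8 expressed genes, 351 of 378 values under other settings and 227 of 272 with a sample left out kept their direction and their side of the threshold. A value called in neither fit counts as kept, and some settings, such as a pseudocount of 1, change the values little. These shares therefore do not say how many calls held. Counts of members called ranged, with a sample left out, from 1 to 5 in FAK-R454 against FAK KO cells (4 in the main analysis) and from 0 to 6 in FAK-WT against FAK-R454 cells (2). This last comparison gave 1 without the filter and 6 with the replicate block, which leaves out FAK-WT replicate 3, as does the sample left out that gave 6. With chromosomes centred, 2 instead of 6 were called in FAK-WT against FAK KO cells, where 1851 higher and 2986 lower of all genes became 1459 and 2560. Replicate numbers did not pair the samples by the correlation of their deviations (-0.245 to 0.445), and in no comparison was every sample most like its own number. In the other comparisons the replicate block called 6 in FAK-WT, 3 in FAK-R454, 6 in β-catenin ΔGSK and 5 in KMF against FAK KO cells, and 3 in FAK-WT against KMF cells. Over all genes the block called 1741 higher and 2650 lower in FAK-WT and 953 and 865 in FAK-R454 against FAK KO cells. It called 3330 and 4823 in β-catenin ΔGSK and 2535 and 3131 in KMF against FAK KO cells, and 1979 and 2546 in FAK-WT against KMF cells.

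Counts over all genes (higher and lower) moved by over 1.5 times from 398 and 523 in FAK-WT against FAK-R454 cells to 228 and 353 without the filter, 1567 and 1826 with the replicate block and 247 and 270 with chromosomes centred, and between 4 and 3 and 1505 and 1807 with a sample left out. In FAK-R454 against FAK KO cells 1156 and 1169 became 853 and 673 without the filter, and between 312 and 236 and 1931 and 2459 with a sample left out. In FAK-WT against FAK KO cells 1851 and 2986 became 1191 and 1536 without FAK KO replicate 3 and 1259 and 1854 without FAK-WT replicate 2.

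Some values changed direction. With chromosomes centred they were -0.15 for Ccne1 in FAK-WT against FAK KO cells, -0.20 for Cdkn1a (which then passed the test, adjusted p = 0.0286) and 0.16 for Cdkn1b in KMF against FAK KO cells, -0.077 for Ccnd3 in FAK-WT against FAK-R454 cells and -0.0041 for Ccnd1 in FAK-WT against KMF cells. With a sample left out they ranged from -0.094 to 0.16 for Ccne1 in FAK-WT against FAK KO cells, from -0.069 to 0.035 for Cdkn1b in FAK-R454 against FAK KO cells, from -0.010 to 0.084 for Cdkn1a in KMF against FAK KO cells, and in FAK-WT against KMF cells from -0.013 to 0.12 for Ccnd1 and from -0.051 to 0.10 for Cdkn2c. The cause was not tested. With the filter at 5 FPKM, Ccne1 was not tested. Depth limits Ccne1 (121 to 166 fragments per library), and the 2 FAK-R454 samples limit that line.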
